A study of Arabidopsis thaliana with 12 samples.

Results

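The dexamethasone by cycloheximide interaction asked, for each probe set, whether 9-day-old Arabidopsis thaliana seedlings carrying LEAFY-GR responded to 8 h of dexamethasone differently when cycloheximide was present. It was computed from 8 of the 12 arrays of the series as the response with cycloheximide (dexamethasone plus cycloheximide minus cycloheximide) minus the response without it (dexamethasone minus mock), on log2(signal + 10), for all 22746 probe sets other than the array's own controls. The 4 groups were LEAFY-GR seedlings treated for 8 h with mock, dexamethasone, cycloheximide, or dexamethasone plus cycloheximide, each with 1 array in lot 1 and 1 in lot 2. Untreated Landsberg erecta and untreated 35S::LFY seedlings, also with 2 arrays each, entered the fit only to help estimate the spread. All 8 arrays came from seedlings with the LEAFY-GR transgene, and no seedlings without it received dexamethasone here. The labels give neither the promoter or genetic background of LEAFY-GR nor the doses. Whether both arrays of a group stand for independent plant material is not stated either, and the p-values thus reflect array-to-array spread that may be purely technical.

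LEAFY is a plant-specific transcription factor that commits a new meristem to becoming a flower and switches on floral identity genes. As a fusion with the steroid-binding domain of the glucocorticoid receptor (GR), it stays largely outside the nucleus until dexamethasone binds, so the steroid acts as a switch. Cycloheximide blocks translation: a transcript that answers dexamethasone in its presence does so without newly made protein, and many short-lived transcripts accumulate under the drug by themselves. A positive interaction therefore means a rise that is larger with cycloheximide, a fall that is smaller with it, or a fall turned into a rise. A negative one means a smaller rise, a deeper fall, or a rise turned into a fall.

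The drug itself moved the level from which the second response was read. Cycloheximide alone raised 3909 probe sets (17.2%) and lowered 5818 (25.6%) at an adjusted p under 0.05 in limma. In whole seedlings, fewer cells of a type and less RNA per cell cannot be told apart. Where both groups of an arm lay at or below a signal of 10, which is also the constant added before taking logs, that arm had almost nothing to measure. At least 1 group above 10 in both arms was found for 19144 probe sets (84.2%), for 731 (3.21%) only without cycloheximide, for 939 (4.13%) only with it and for 1932 (8.49%) in neither. Mock and cycloheximide both exceeded 10, leaving some room for a fall in either arm, for 18124 probe sets (79.7%). Shoot and root markers were present on all 8 arrays. LHCB4.1, a photosynthetic antenna protein gene, had signals of 3267.1 to 7420.3 and PYK10, a root beta-glucosidase gene, of 1224.1 to 5556.4. The flower markers AP3, PI, AG and SEP3, and LFY itself, were not under a named probe set. The log2 interaction of the 3′ to 5′ signal ratio of the control transcripts, a sign of RNA quality, was 0.04 in lot 1 and -0.44 in lot 2 for GAPDH, 0.09 and 0.01 for actin, and -0.15 and 0.04 for ubiquitin, and its part in the results was not tested.

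Interactions were few. Limma called 6 probe sets with a higher response under cycloheximide (0.0264%) and 1 with a lower one (0.0044%). At an unadjusted p under 0.05 there were 1168 (5.13%), about the share that this threshold passes with no interaction at all. They split into 462 higher and 706 lower. With the arrays scaled to equal medians that split turned to 722 higher and 431 lower, and after quantile normalization it was 609 and 556. The 7 were the unnamed probe sets 261717_at and 259839_at, the expansin gene EXPA8, and the loci AT5G22580, AT4G12500, AT5G50335 and AT1G24140. The calls themselves were 2 higher and 0 lower with equal medians and 5 and 0 after quantile normalization in limma. Of the 7, 261717_at and AT5G22580 kept the call with equal medians and without the intensity trend in the variance, and 261717_at alone with only the 8 LEAFY-GR arrays. The median interaction over all probe sets was -0.082 as deposited, 0.062 with equal medians and -0.007 after quantile normalization, so values near 0 have no settled sign.

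The precision of a difference of 2 differences was low. The median standard error of the interaction was 0.38 log2, against 0.269 for dexamethasone against mock, and the 1st and 99th percentiles of the estimates were -1.267 and 1.149. The 2 lots gave per-lot interactions that correlated at r = 0.14 across the 22746 probe sets, and at 0.222 across the 9608 whose 4 group means all exceeded 50. Those brighter probe sets had a median standard error of 0.279 log2, and the others 0.458. These correlations are across probe sets of the same arrays and are given as a description.

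**Figure D1:**
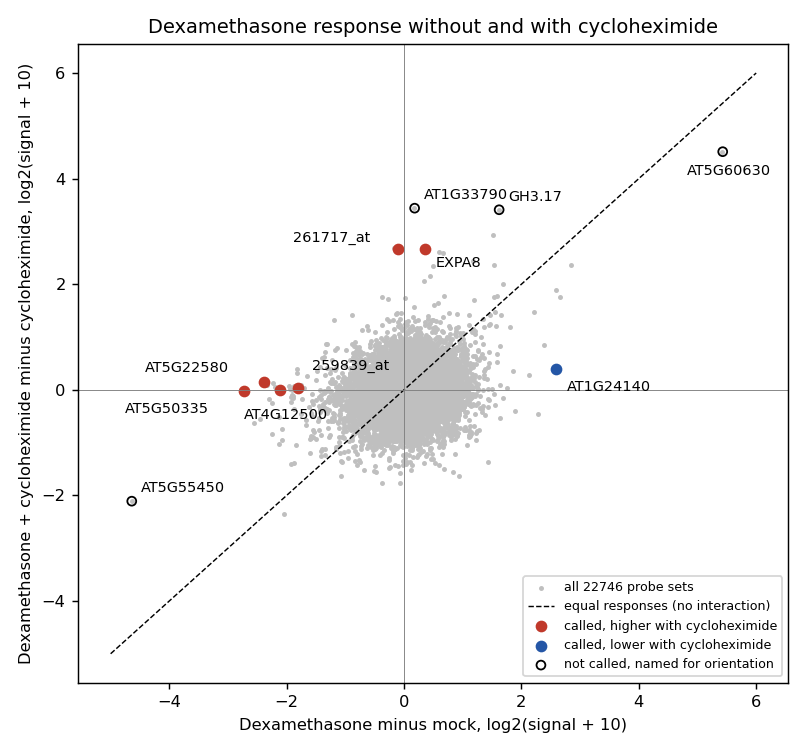
Each point is 1 of 22746 probe sets, with the dexamethasone response without cycloheximide on the horizontal axis and with it on the vertical axis, both as log2(signal + 10). The 6 red points are called interactions with a higher response under cycloheximide and lie above the dashed line of equal responses, 4 of them at falls of 1.81 to 2.72 that are near 0 with the drug, while the blue point is AT1G24140.

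In 2 of the called interactions dexamethasone raised the signal in the arm with cycloheximide, and the response in the other arm did not pass. The probe set 261717_at had signals of 133.4 and 153.9 in mock (lots 1 and 2), 125.4 and 141.4 with dexamethasone, 57.3 and 53.1 with cycloheximide and 430.9 and 377.0 with both. Only the arrays with both drugs stood above mock, and they overlapped with no other group. Its response was -0.10 without cycloheximide and 2.66 ± 0.18 (SE) with it (limma adjusted p = 0.000126), an interaction of 2.76 ± 0.26 log2 (95% interval 2.19 to 3.33, adjusted p = 0.00678). The lots gave 2.79 and 2.73. Landsberg erecta had 67.2 and 80.9 and 35S::LFY 49.8 and 62.8, both below mock-treated LEAFY-GR. The call was lost without cycloheximide replicate 2 (adjusted p = 0.0534), mock replicate 2 (0.0805) or either array with both drugs (0.113 and 0.0517).

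EXPA8, an alpha-expansin that loosens cell walls during growth, showed the same direction from a much lower floor. Signals were 122.0 and 196.8 in mock, 177.3 and 228.6 with dexamethasone, 5.3 and 7.1 with cycloheximide and 89.3 and 96.5 with both. Cycloheximide took EXPA8 below 10, and dexamethasone in its presence brought it back to a level under that of every mock array. The responses were 0.36 ± 0.22 without cycloheximide and 2.67 ± 0.22 with it, and the interaction was 2.31 ± 0.31 (limma adjusted p = 0.0433). It was 1.44 with a constant of 30 in place of 10 (adjusted p = 0.257) and 2.77 with a constant of 5 (0.0208). With the lot as a block the adjusted p was 0.0594, and when single arrays were dropped EXPA8 was called only without mock replicate 1 (0.0287, against 0.0938 to 0.195 in the other 7 fits). A fall of EXPA8 with cycloheximide could have been measured only up to 0.69 log2, while a rise had room.

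Other genes with a rise called only in the cycloheximide arm had interactions that did not pass. AT1G33790 had signals of 145.1 and 121.2 in mock, 180.5 and 126.3 with dexamethasone, 33.4 and 11.3 with cycloheximide and 245.5 and 414.4 with both. Its interaction of 3.26 ± 0.56 was the highest among the named genes, but the lots gave 2.26 and 4.26 (limma adjusted p = 0.161). The 2 cycloheximide arrays differed most, and the larger value belongs to the lot with the lower cycloheximide signal. HAT2, a homeodomain-leucine zipper transcription factor gene that responds to auxin, went from 53.5 and 28.1 with cycloheximide to 194.3 and 195.7 with both drugs, within the range of its mock signals of 176.4 and 264.4. The response of HAT2 was 0.33 without cycloheximide and 2.06 with it, an interaction of 1.73 ± 0.34 (lots 0.96 and 2.49, adjusted p = 0.237).

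GH3.17, which encodes an enzyme that joins auxin to an amino acid, rose in both arms. It had 78.7 and 96.4 in mock, 282.4 and 295.5 with dexamethasone, 27.9 and 8.8 with cycloheximide and 223.8 and 336.2 with both. The levels reached with dexamethasone were alike with and without cycloheximide, and the starting levels were not. The responses were 1.62 and 3.41, and the interaction of 1.79 ± 0.41 (95% interval 0.89 to 2.69) had an adjusted p of 0.445 in limma and per-lot values of 0.90 and 2.68.

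With dexamethasone in the presence of cycloheximide, 31 probe sets (0.136%) were called higher. The cycloheximide signal lay below mock for 22 of these 31, as for GH3.17. The median cycloheximide change over all probe sets was -0.03 log2. A low cycloheximide signal itself enlarges this response, so the count is a description. The levels reached were not always alike in both arms. AT5G60630 had means of 2729.2 with dexamethasone and 713.4 with both drugs. Of the 31, 28 had a positive response without cycloheximide. Of the same 31, 15 were also called higher without it, against 0.215% of all probe sets, and 16 were not. The median response of the 31 was 1.77 with cycloheximide and 1.00 without, values that describe probe sets chosen on the first of them. Among the 16, AT5G51140 had mean signals of 137.0 in mock, 126.0 with dexamethasone, 7.3 with cycloheximide and 37.2 with both, and AT2G47560 had 72.9, 122.3, 6.6 and 88.2. AT1G47400 and AT2G31730 differed from these, with mean cycloheximide signals of 95 and 83.4 above mock means of 32.6 and 36.7, and with both drugs they reached 578.2 and 283.6. Leaving out either array with both drugs cut the 31 calls to 17 (replicate 1) or 14 (replicate 2).

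**Figure D2:**
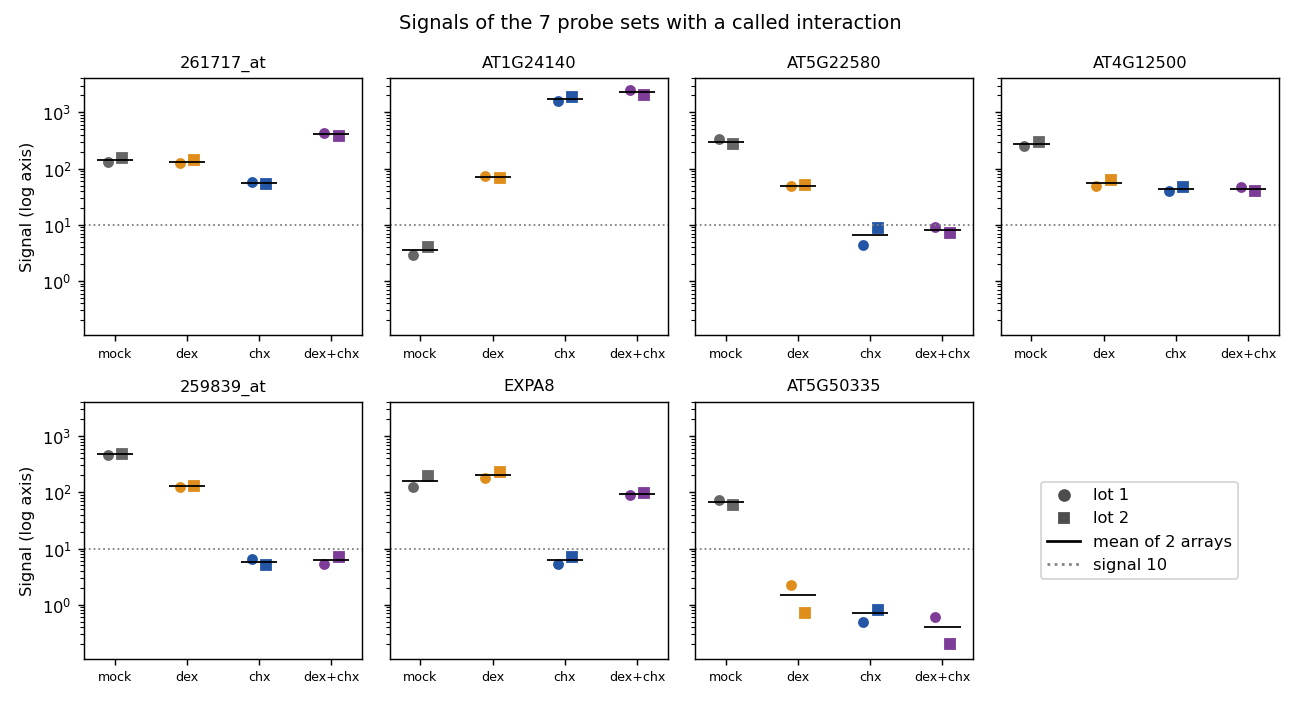
Signals on a log axis of the 7 probe sets with a called interaction in the 4 LEAFY-GR groups, with a circle for lot 1, a square for lot 2, a line at the mean of the 2 arrays and a dotted line at signal 10. The dexamethasone plus cycloheximide arrays of 261717_at, at 430.9 and 377.0, lie above all its others, while AT5G22580, 259839_at and AT5G50335 lie below 10 in both cycloheximide groups.

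Most of the called interactions were falls with dexamethasone that were not seen with cycloheximide. For 3 of these 4 the second arm lay below 10 throughout, so the interaction was made of the first arm alone. AT5G22580 had 330.8 and 272.5 in mock, 48.2 and 50.4 with dexamethasone, 4.4 and 8.6 with cycloheximide and 9.1 and 7.1 with both. Cycloheximide alone took it further down than dexamethasone did. Its responses were -2.39 ± 0.23 and 0.14 ± 0.23, its interaction was 2.53 ± 0.32 (lots 2.96 and 2.10, limma adjusted p = 0.0433), and the deepest fall still measurable from its cycloheximide level was 0.71 log2. The probe set 259839_at went from 459.7 and 488.5 in mock to 125.3 and 131.4 with dexamethasone, and had 6.4 and 5.1 with cycloheximide and 5.2 and 7.1 with both, an interaction of 1.84 ± 0.25 (adjusted p = 0.0433). AT5G50335 went from 71.7 and 59.8 in mock to 2.2 and 0.7 with dexamethasone, and had 0.5 and 0.8 with cycloheximide and 0.6 and 0.2 with both, an interaction of 2.69 ± 0.37 (adjusted p = 0.0495). For these 3, an equal fall with cycloheximide could not have been measured, whatever the seedlings did. With a constant of 5 the limma adjusted p-values were 0.0588 for AT5G22580 and 0.0922 for the other two, and with a constant of 30 all 3 were called, AT5G50335 at 1.59. With the lot as a block the adjusted p-values were 0.0504 for AT5G22580, 0.0523 for 259839_at and 0.069 for AT5G50335, and no fit that left out 1 array called them (0.0558 to 0.256, 0.0558 to 0.407 and 0.106 to 0.256).

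AT4G12500 was the one called fall that had room in both arms. Its signals were 253.0 and 292.8 in mock, 49.7 and 61.6 with dexamethasone, 39.4 and 47.6 with cycloheximide and 46.1 and 40.6 with both. Mock stood apart, and the 3 other groups lay within 39.4 to 61.6. The fall of 2.11 ± 0.19 without cycloheximide (limma adjusted p = 0.00078) compared with a response that rounds to 0 with it, although a fall of up to 2.42 log2 was measurable. The interaction was 2.11 ± 0.27 (95% interval 1.51 to 2.71, adjusted p = 0.0433, 0.0523 after blocking on the lot and 0.0761 to 0.258 when 1 array was left out). Landsberg erecta had 98.4 and 102.3, below mock, and 35S::LFY had 405.0 and 319.6, above it.

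AT2G39980 resembled AT4G12500 at higher signals without passing. It had 827.2 and 939.9 in mock, 141.3 and 164.5 with dexamethasone, 190.9 and 241.8 with cycloheximide and 159.7 and 126.8 with both. The responses were -2.46 and -0.56, so both were negative, and the interaction was 1.89 ± 0.30 (limma adjusted p = 0.125). AT4G24780 (1.28 ± 0.25, adjusted p = 0.237) and the probe set 248163_at (1.69 ± 0.28, 0.158) had the same shape, mock high and the other 3 groups together. These 3 are named beside the calls, AT4G24780 and 248163_at having been chosen after their values were seen.

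XTH19, a xyloglucan endotransglucosylase/hydrolase gene that remodels cell walls, fell with dexamethasone and had no called response from its raised level under cycloheximide. Signals were 46.4 and 48.6 in mock, 2.1 and 9.7 with dexamethasone, 628.8 and 594.7 with cycloheximide and 556.2 and 536.0 with both. Cycloheximide raised XTH19 by 3.43 log2, and both cycloheximide groups lay far above the others. The response was -1.90 without cycloheximide and -0.16 with it, an interaction of 1.74 ± 0.34 (limma adjusted p = 0.237). In signal units the fall was 41.6 without cycloheximide and 65.6 with it, so the interaction of XTH19 in linear signal was -24, opposite to that on the log scale. The unnamed probe set 263096_at (1.34 ± 0.23, adjusted p = 0.161) and Prx37, a class III peroxidase gene (0.92 ± 0.28, 0.724), also fell with dexamethasone and were higher with cycloheximide than in mock.

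Over all 59 probe sets called lower with dexamethasone (0.259%), room to fall differed between members. With cycloheximide 20 of them had a level too low for an equal fall and 39 had room, and 16 of the 59 lay at 10 or less. In the 39 with room the median response was -1.42 without cycloheximide and -0.56 with it, and 35 stayed negative. In the 20 without room the medians were -1.90 and -0.02, and 11 were negative. For the interaction, 28 of the 39 and each of the 20 had an unadjusted limma p under 0.05, against 5.13% of all probe sets. Among them 1 and 3 were called higher, against 0.0264%. Because these probe sets were chosen by their fall in 1 arm, the smaller value in the other arm is a description and no test. The same holds for these counts, since that fall is part of the interaction and the split by room uses the cycloheximide signal.

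Of the 59, 4 were also called lower with cycloheximide, against 13 (0.0572%) of all probe sets. These 4 were AT5G55450, AT5G01210, AT5G62280 and the unnamed probe set 266364_at (responses of -1.41 and -1.15, interaction 0.26). AT5G55450 had 291.3 and 442.8 in mock, 2.1 and 8.2 with dexamethasone, 131.2 and 81.8 with cycloheximide and 15.2 and 17.7 with both. It fell by 4.64 log2 without cycloheximide and fell by 2.11 with it, with an interaction of 2.53 ± 0.48 (limma adjusted p = 0.237). AT5G01210 had 957.9 and 995.1 in mock, 192.3 and 239.4 with dexamethasone, 137.3 and 131.6 with cycloheximide and 58.2 and 63.2 with both, falls of 2.13 and 1.03 log2 and an interaction of 1.10 ± 0.22 (adjusted p = 0.237). AT5G62280 had a response of -2.05 without cycloheximide and -2.36 with it, so its 2 falls were of like size. SWEET11, a sucrose exporter gene and not one of the 4, fell by 1.26 without cycloheximide and had -0.86 with it, which did not pass, from means of 1411 in mock and 122.7 with cycloheximide.

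**Figure D3:**
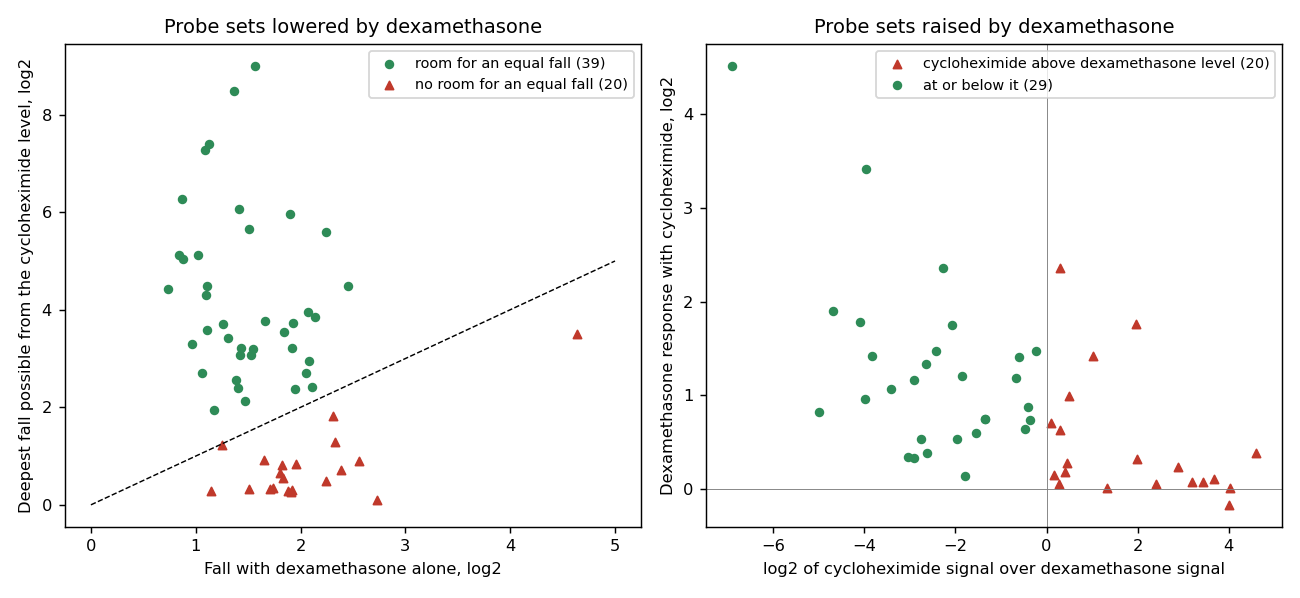
On the left, each of the 59 probe sets lowered by dexamethasone is placed by its fall (horizontal) and by the deepest fall measurable from its cycloheximide level (vertical), both in log2(signal + 10), and the 20 triangles below the dashed line had no room for an equal fall. On the right, the 49 probe sets raised by dexamethasone are placed by the log2 ratio of cycloheximide to dexamethasone signal and by their response with cycloheximide. That response had a median of 0.21 for the 20 triangles and 1.07 for the 29 circles. The cycloheximide signal enters both axes on the right with opposite signs, which by itself pulls triangles and circles apart.

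The 1 called negative interaction belonged to AT1G24140, whose rise began from almost no signal. It had 2.9 and 4.1 in mock, 73.1 and 69.2 with dexamethasone, 1584.8 and 1881.7 with cycloheximide and 2487.3 and 2065.0 with both. Cycloheximide alone raised AT1G24140 by 7.01 log2, and the groups did not overlap. Dexamethasone raised it by 2.59 ± 0.18 without cycloheximide (limma adjusted p = 0.000123), and the response with it was 0.39 ± 0.18 (0.825). The interaction was -2.20 ± 0.26 (95% interval -2.76 to -1.64, lots -2.04 and -2.36, adjusted p = 0.0312, 0.045 after blocking on the lot). With a constant of 30 it was -1.21 (limma adjusted p = 0.159), and the call also ended with equal medians (0.0567), after quantile normalization (0.0502), without the trend (0.054) and with only the 8 LEAFY-GR arrays (0.0711). In linear signal dexamethasone added 67.7 without cycloheximide and 542.9 with it, a difference of 475.3 in the other direction, so the sign of this interaction rests on the log scale. No fit that left out 1 array called it (adjusted p = 0.0558 to 0.144).

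Of the other probe sets raised both by dexamethasone and by cycloheximide alone, some had this shape without passing, while others such as AT2G26390 and AT5G49770 were called higher in both arms. AR781 had 171.3 and 115.5 in mock, 530.8 and 393.6 with dexamethasone, 4859.3 and 5209.7 with cycloheximide and 5124.6 and 5548.1 with both. It rose by 1.63 with dexamethasone and had 0.08 with cycloheximide, an interaction of -1.55 ± 0.30 (limma adjusted p = 0.237), while its gain in signal units was 318.8 and 301.9. PUB23, a U-box ubiquitin ligase gene that dampens immune signalling, had 102.8 and 112.8, 323.0 and 229.8, 4384.8 and 4619.2, and 4805.0 and 4280.2 in the same order of groups. The response of PUB23 was 1.26 and then 0.01, an interaction of -1.25 ± 0.28 (adjusted p = 0.407). STZ, a stress-responsive zinc finger repressor gene, had 0.96 and then 0.08, an interaction of -0.87 ± 0.24 (0.643), with cycloheximide signals of 7160.6 and 8824.4 near the top of the scale, where array maxima were 8128.1 to 10920.2. Whether signals so near the top could still rise was not tested. AT5G59680 rose from 36.7 and 28.8 in mock to 178.7 and 172.6 with dexamethasone, and had 289.5 and 190.6 with cycloheximide and 247.4 and 334.1 with both, an interaction of -1.84 ± 0.35 (0.237).

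Of the 49 probe sets called higher with dexamethasone (0.215%), 20 already had a higher signal with cycloheximide alone than with dexamethasone alone. In these 20 the median response was 1.27 without cycloheximide and 0.21 with it, 19 were positive and 3 were called. In the other 29 the medians were 1.38 and 1.07, 29 were positive and 12 were called. Over all probe sets 31 (0.136%) were called higher with cycloheximide, and the median response with it was -0.011. Over all 49 the median was 1.35 without cycloheximide and 0.74 with it, and 48 were positive. The 2 responses share no array, but the members were chosen on the first of them. The cycloheximide signal that splits the 49 is also subtracted in the response with cycloheximide. The split itself thus pulls the medians and calls of the 20 and the 29 apart, and they are given as a description. Leaving out 1 array moved the calls with dexamethasone from 49 higher and 59 lower to 15 and 24 (dexamethasone replicate 1), 22 and 32 (dexamethasone replicate 2), 27 and 26 (mock replicate 1) or 16 and 17 (mock replicate 2), and scaling to equal medians gave 29 and 67.

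The 13 probe sets called lower with dexamethasone in the presence of cycloheximide (0.0572%) had a median response of -1.06 there and of -0.48 without cycloheximide, where 12 of the 13 were negative. No interaction among them was called. CSLD2, a cellulose synthase-like gene, had mean signals of 253.2 in mock, 242.8 with dexamethasone, 351.8 with cycloheximide and 171.2 with both, a response of -0.06 without cycloheximide and -1.02 with it, and an interaction of -0.96 (limma adjusted p = 0.499). PMEPCRF had means of 482.3, 287.8, 153.8 and 68.2 in the same order, responses of -0.74 and -1.06, and an interaction of -0.32 (adjusted p = 0.972). The count was 8 without either cycloheximide array or without dexamethasone plus cycloheximide replicate 1, 6 without its replicate 2, 4 with equal medians and 20 with the lot as a block. Because these probe sets were chosen by their fall with cycloheximide, the smaller values without it are a description.

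Some rises passed in both arms, among them the largest called rise of each arm. AT5G60630, a reported LEAFY target, had 58.1 and 49.1 in mock, 2994.6 and 2463.8 with dexamethasone, 14.7 and 30.8 with cycloheximide and 754.0 and 672.7 with both. Every array with dexamethasone lay above every array without it. It rose by 5.43 and 4.51 log2, and the interaction was -0.92 ± 0.33 (95% interval -1.63 to -0.20, limma adjusted p = 0.887). In linear signal the gain was 2675.6 without cycloheximide and 690.6 with it.

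The narrowest interval among the genes named for their response belonged to AT5G47550. It had 788.5 and 884.6 in mock, 1666.0 and 1582.9 with dexamethasone, 149.6 and 154.7 with cycloheximide and 310.6 and 351.5 with both. The rises were 0.95 and 1.07, and the interaction of 0.12 had a 95% interval of -0.26 to 0.50. AT3G52470 rose by 1.53 and 1.75, from 376.7 and 356.1 to 1114.5 and 1033.3 and, with cycloheximide, from 229.0 and 278.5 to 769.7 and 991.2. The interval of its interaction of 0.23 was -0.23 to 0.68, and both point estimates turned slightly negative after quantile normalization (-0.01 for AT5G47550 and -0.07 for AT3G52470). AT5G43830 and AT3G19390 had mean cycloheximide signals of 220.2 and 106.6 against 1749 and 346.8 in mock, and interactions of -0.04 and -0.02.

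Other rises in both arms had intervals wide enough to hold a difference of 1 log2. AT5G49770, another reported LEAFY target, had 3.2 and 2.3 in mock, 80.1 and 82.3 with dexamethasone, 133.0 and 65.1 with cycloheximide and 505.2 and 540.1 with both. Its rises were 2.84 and 2.36, and the interaction of -0.48 had an interval of -1.45 to 0.49 and was 0.39 with a constant of 30 in place of 10, so its sign is not settled. AT1G73600 rose by 2.59 and 1.90 (interaction -0.69, interval -1.39 to 0.00) and AT2G26390 by 2.66 and 1.76 (-0.90, interval -1.67 to -0.12). With a constant of 30 the interaction of AT2G26390 was -0.32, and in linear signal it was 1488.3, of the other sign. AT2G26390 began at 19.3 and 18.8 in mock but at 821.2 and 566.7 with cycloheximide, and reached 2360.8 and 2319.2 with both drugs. A rise from a baseline raised by cycloheximide thus passed the test there. The list of reported targets held only AT5G60630 and AT5G49770 under named probe sets and was drawn partly from these samples by the study, so it is not independent evidence of direction.

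Some genes had responses of opposite sign that were at least 0.5 log2 in size in both arms, none with a called interaction. YLS5, which encodes a protein of the DJ-1 family, had 229.3 and 199.8 in mock, 350.4 and 304.4 with dexamethasone, 1065.1 and 1049.4 with cycloheximide and 758.1 and 631.4 with both. All signals of YLS5 were well above 10 and no groups overlapped. Its responses were 0.59 and -0.60, neither passing, and the interaction was -1.19 ± 0.19 (lots -1.08 and -1.31, limma adjusted p = 0.152). BZIP61, a bZIP transcription factor gene, ran the other way, with 119.0 and 126.8 in mock, 72.3 and 82.5 with dexamethasone, 53.1 and 61.1 with cycloheximide and 152.5 and 122.2 with both, and an interaction of 1.74 ± 0.29 (adjusted p = 0.155). The mock and dexamethasone plus cycloheximide groups of BZIP61 overlapped, and the other groups did not. BZIP61 was chosen after its values were seen.

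Many of these opposite responses lay at low signals. AT3G28680 had 7.7 and 6.3 in mock, 27.9 and 45.3 with dexamethasone, 28.6 and 38.9 with cycloheximide and 4.4 and 9.7 with both, an interaction of -2.80 ± 0.49 (limma adjusted p = 0.161). Each array with a single drug lay above mock and above both arrays that had received the 2 drugs together. AT1G22480 (-2.56 ± 0.51), AT4G27590 (-2.09 ± 0.48), AT4G34140 (-2.02 ± 0.47) and ATBRXL2 (-1.74 ± 0.40), chosen after their values were seen, had the same pattern at signals up to 50.5, with adjusted p-values of 0.24 to 0.446. UGT76E1, a glycosyltransferase gene, could be read only with cycloheximide, where it fell from 25.4 and 38.1 to 3.7 and 5.2, while mock and dexamethasone lay between 1.6 and 3.0. Its interaction of -1.64 ± 0.30 (adjusted p = 0.23) was thus made of 1 arm.

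A simpler rule, an interaction of at least 1 log2 with the same sign in both lots, was chosen after the values were seen and gave 150 probe sets higher (0.659%) and 178 lower (0.783%). Mock and cycloheximide signals enter the interaction with opposite signs, so the rule itself pulls these levels and responses apart, and they are given as a description. In the higher set the median signal was 54.1 in mock and 10.6 with cycloheximide, and the median responses were -0.98 without cycloheximide and 0.47 with it. In the lower set the median signal was 10.2 in mock and 30.4 with cycloheximide, and the median responses were 0.80 and -0.71.

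Cycloheximide lay at 10 or less for 73 of the 150 higher and 3 of the 178 lower, and mock for 10 and 89. The first arm alone was above 10 for 28 and 3 of them, and the second alone for 9 and 15. By shape, the higher set held 35 probe sets with responses of opposite sign and at least 0.5 log2 in both arms. The rest, sorted by size whatever the sign, held 78 responses smaller with cycloheximide and 37 larger. The lower set held 72, 60 and 46 in that order. All 4 group means were under 50 for 58 of the higher (38.7%) and 115 of the lower (64.6%), against 8092 of all probe sets (35.6%). Of the opposite responses by that cutoff, 22 of 35 and 55 of 72 were of this dim kind.

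The mock arrays enter the interaction with a positive sign, and mock was above Landsberg erecta for 84 of the 150 (56.0%), 33 of the 178 (18.5%) and 8883 of all probe sets (39.1%). The part of the mock arrays in these sets was not tested. In linear signal the sign was the same for 149 of the 150 and 177 of the 178, the exception in the lower set being AT1G24140.

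**Figure D4:**
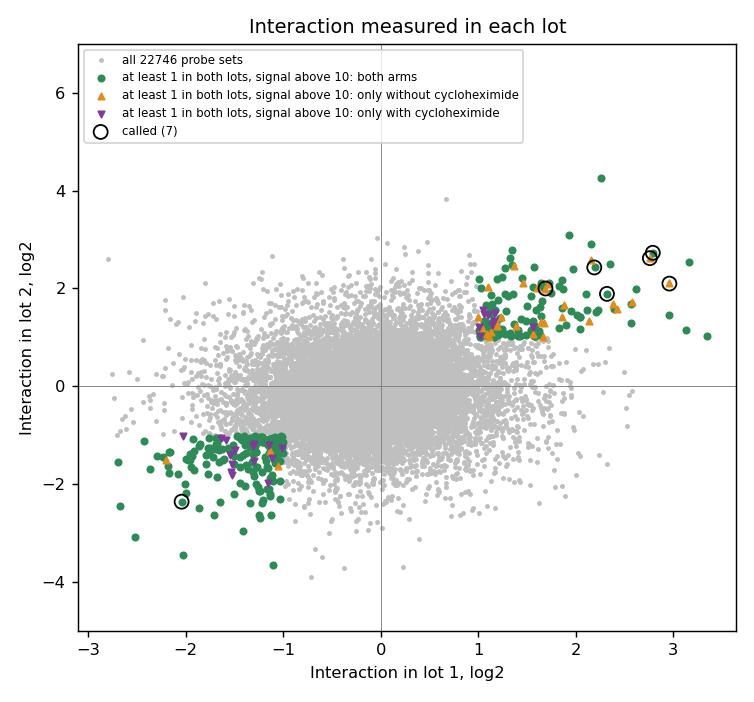
Each point is 1 of 22746 probe sets, with the interaction in lot 1 on the horizontal axis and in lot 2 on the vertical axis, in log2. Coloured points reached at least 1 log2 in both lots, with colour and shape giving the arms in which the signal exceeded 10, and the 7 called interactions are circled, among them 261717_at at 2.79 and 2.73.

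Gene families were described by the count of called members and the median interaction, beside 0.0264% called higher, 0.0044% called lower and a median of -0.082 over all probe sets. Of 28 lists of cell wall, hormone, defence, flowering and housekeeping genes, 26 had a measured member, and 1 member in all was called, EXPA8. The 19 measured expansins had a median interaction of 0.31 (0.47 with equal medians and 0.41 after quantile normalization), 12 were positive, and the lots gave medians of 0.34 and 0.11. Apart from EXPA8 the nearest was EXPA16, with 46.1 and 28.5 in mock, 25.5 and 25.3 with dexamethasone, 15.8 and 12.6 with cycloheximide and 24.6 and 28.7 with both, and an interaction of 0.99 ± 0.42 (limma adjusted p = 0.967). Expansins of the root hair, EXPA7 and EXPA18, had -0.30 and 0.36. The 10 xyloglucan XTH genes had a median of 0.03, and XTH18, which cycloheximide took from 150.3 and 151.6 to 5773.1 and 6730.7, had an interaction of -0.15, unlike its relative XTH19.

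Among 17 early auxin response genes the median was -0.20 (-0.08 and -0.02 under the other scalings), and the range was wide, from -0.92 to 2.18. Besides GH3.17, the GH3 genes WES1 and GH3.3 had 0.53 and 0.66, and GH3.1 and GH3.9 had -0.67 and -0.25, none passing. IAA29, an Aux/IAA repressor gene, had 24.3 and 25.5 in mock, 9.5 and 24.4 with dexamethasone, 13.4 and 16.8 with cycloheximide and 30.5 and 31.5 with both, an interaction of 1.14 ± 0.45 (limma adjusted p = 0.937). AT3G53250, listed as the small auxin upregulated RNA gene SAUR57, had the highest value of the list, 2.18 ± 0.66, but its 2 arrays with both drugs read 29.3 and 1.4, so the lots gave 3.34 and 1.03.

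Floral regulators gave little to read. The 6 measured floral organ and meristem genes had a median of -0.38 and none was called, but only 2, SPT and LAS, exceeded 10 in both arms. UFO, an F-box partner of LEAFY, had 3.0 and 21.8 in mock and 28.4 and 5.7 with dexamethasone, the lots running in opposite directions. CLV3, a meristem peptide gene, stayed at or below 6.2 on all 8 arrays. Of 6 flowering time genes, with a median of -0.36, FD, which encodes the bZIP partner of the florigen FT, had 15.1 and 22.7 in mock, 38.0 and 63.3 with dexamethasone, 32.0 and 75.9 with cycloheximide and 39.7 and 79.2 with both. Its interaction was -0.90 ± 0.69 (limma adjusted p = 0.972). AGL24, a MADS-box gene, had 1.0 and 1.4, 4.2 and 15.5, 12.1 and 24, and 10.4 and 21.5, an interaction of -0.88 ± 0.46.

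The remaining families held no call. Among families with at least 3 measured genes peroxidases had the lowest median, -0.55 over 7 genes, of which Prx37 alone was positive. The median was -0.36 with equal medians and -0.52 after quantile normalization. At an unadjusted limma p under 0.05 there were 4 of the 7, the positive Prx37 among them, against 5.13% of all probe sets. The 16 SWEET sugar transporters had a median of -0.33, with 3 positive and SWEET16 at -0.73 ± 0.27. The 51 UDP-glycosyltransferases (-0.15), 22 beta-glucosidases (-0.11), 22 cytochromes P450 (0.03) and 14 glutathione transferases (-0.08) lay near the median of all probe sets. BGLU31, raised by cycloheximide from 1.9 and 10.5 to 308.2 and 305.9, had 171.7 and 140.1 with both drugs and an interaction of -1.42 ± 0.43 (limma adjusted p = 0.714). BGLU44 fell from 459.7 and 365.0 in mock to 105.3 and 141.9 with dexamethasone and had an interaction of 0.99 ± 0.36 (0.899). RR18, a type-B cytokinin response regulator gene, had -2.01 ± 0.67 (0.833), with lots of -0.67 and -3.34.

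**Figure D5:**
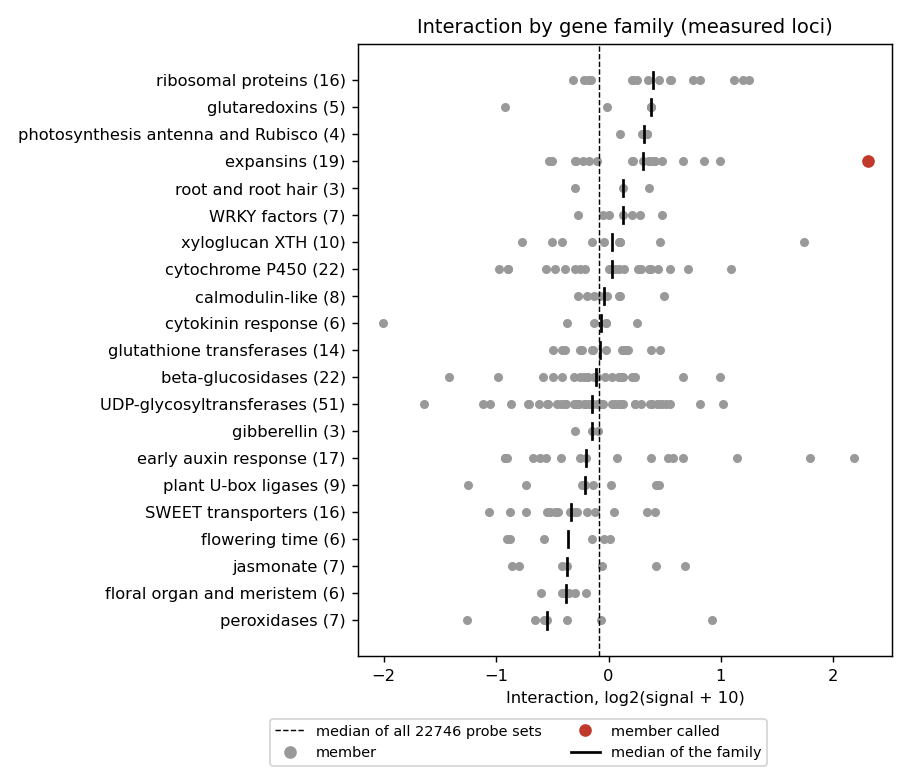
Interaction of each measured member of the families with at least 3 measured loci (number in brackets), in log2(signal + 10), with a black bar at the family median and a dashed line at the median of all 22746 probe sets, -0.082. The single red point is EXPA8 at 2.31, and family medians run from -0.55 for peroxidases to 0.40 for ribosomal proteins.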

How the data were processed

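RNA of 12 arrays was measured as 1 intensity per probe set. The authors deposited linear intensities. The sources used here name neither their software nor a background step. Judging from the values, the deposited intensities were already scaled, with 2%-trimmed means of 150.01 to 150.02, and were kept as deposited. The number of arrays limits the precision.

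The 64 control probe sets were left out. Signals were transformed to log2(signal + 10), which understates changes at low signal. A linear model with 6 group means was fitted by limma 3.58.1 (R 4.3.3) to the 12 arrays (6 residual and a median of 5.3 prior degrees of freedom, intensity trend), with Benjamini-Hochberg adjustment over 22746 probe sets and calls at an adjusted p under 0.05. The fit was run on simulated arrays with planted interactions larger than any called here and with no shared lot effect. That run checks the code and not the power or the error rate for these data. Errors after ± are standard errors. Counts were made in pandas 2.3.3 and numpy 2.4.6 under Python 3.11.15, and plots in matplotlib 3.10.9. Alternatives were other constants, scalings, filters on dim probe sets, the lot as a block, only 8 arrays, no trend and each array left out.

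The labels give the lot as a shared batch, and deviations from group means of arrays of the same lot correlated at 0.102 to 0.334 in the 6 pairs of groups, so the lot pairs the arrays. The main fit left the lot out, and with the lot as a block 5 of the 7 calls were lost.

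Gene names came from the annotation table of the array and from RefSeq genes of TAIR10.1, used for names only: 13484 matched 1 locus, 13333 loci in all, 1535 with a symbol, and 9262 are unnamed here. Locus codes are given without a role where these tables hold none. Genes were named by rule: called interactions with 1 locus and the same sign in both lots, up to 15 each way if readable in both arms, and up to 5 each way of those readable in 1 arm; the 5 smallest p-values in a direction with under 5 calls; the 8 loci of smallest p in each dexamethasone response; every called family member and up to 3 others of smallest interaction p; and every measured reported LEAFY target. Any other probe set in the text was picked with its values in view. The members and lists were chosen with earlier results of these data known. Promoter sequences were not analysed here.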

Additional observations from a re-analysis of the deposited data

Results flagged for a closer look

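The dexamethasone response differed between the arms with and without cycloheximide, by limma's test of the difference itself, for 7 probe sets. This was the main fit, which left the lot out, and 5 of the 7 calls were lost with the lot as a block. The difference was 2.76 log2 for 261717_at and 2.31 for EXPA8, where the response was larger with cycloheximide. It was 2.53 for AT5G22580, 2.69 for AT5G50335, 1.84 for 259839_at and 2.11 for AT4G12500, where a fall was measured without cycloheximide and not with it, and the first 3 of these had both cycloheximide groups below a signal of 10. It was -2.20 for AT1G24140, where the difference in linear signal had the other sign. Groups held 2 arrays each, too few to look for an outlying array within a group.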

How the results depend on the processing

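The 6 higher and 1 lower interactions were 3 and 1 with a constant of 5, 5 and 0 with 30, 2 and 0 with arrays scaled to equal medians, 5 and 0 after quantile normalization, 2 and 0 without the intensity trend, 3 and 1 over probe sets readable in both arms, 2 and 0 over those with room to fall in both, and 1 and 0 with only the 8 LEAFY-GR arrays. With the lot as a replicate block they were 1 (261717_at) and 1 (AT1G24140), and with the 8 arrays and the lot as a replicate block 0 and 0, where limma gave 528 higher and 963 lower at an unadjusted p under 0.05. Leaving out each array in turn gave 0 to 2 higher and 0 lower calls of interaction, 15 to 58 higher and 17 to 79 lower with dexamethasone, and 14 to 43 higher and 6 to 11 lower with dexamethasone in the presence of cycloheximide. In the latter comparison the block gave 34 higher and 20 lower, and equal medians, added after seeing the data, 27 and 4, and for dexamethasone alone 29 higher and 67 lower. Of the 56 named interactions, 49 were not called and none of them became so under the 18 alternative fits. In those fits 3 values changed sign, AT3G52470 (-0.07) and AT5G47550 (-0.01) after quantile normalization and AT5G49770 with a constant of 30 (0.39). As a difference in linear signal, added for uncalled genes after seeing the data, 7 of the 56 did. They were AT1G24140 (475.3), AT2G26390 (1488.3), AT5G49770 (345.1), STZ (17.2), XTH19 (-24), AT3G52470 (-80.8) and AT5G47550 (-609). The cause of these changes was not tested. Dim probe sets limit what can be read, since a fall below a signal of 10 hardly registers.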

Other observations

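Ribosomal protein genes, nearly all of them plastid-encoded among those named here, had the highest median interaction of the gene families listed, 0.40 over 16 genes (0.58 with equal medians, 0.37 after quantile normalization), with 12 positive and none at an unadjusted p under 0.05. The values of some differed widely between lots. rpl22 had 2277.6 and 613.7 in mock, 1699.1 and 461.1 with dexamethasone, 1495.9 and 360.6 with cycloheximide and 1351.2 and 1090.0 with both, and the lots lay closest with both drugs. rps3 showed the same, with 3142.2 and 1105.0, 2953.7 and 884.0, 2899.3 and 706.3, and 2367.0 and 1870.8. The interaction of rpl22 was 1.12 ± 1.01 and that of rps3 0.75 ± 0.94 (SE), so neither was clear of its error.

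The defensin genes PDF1.2 and PDF1.2b had interactions of -0.80 ± 0.64 and -0.86 ± 0.43, with responses of -0.96 and -0.79 under cycloheximide and -0.15 and 0.07 without it, none passing. They are near-identical copies that may share signal, so they are not independent measurements.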
